A study of Mus musculus with 8 samples.

Results

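NF-kappaB is a family of dimeric transcription factors built from 5 subunit genes, Nfkb1, Nfkb2, Rel, Rela and Relb, and it is held in check by a set of inhibitors. Here 5 of these inhibitor genes are described with the subunits: Nfkbia, Nfkbib, Nfkbie, Nfkbiz and Tnfaip3. The 10 genes were taken by their symbols from a table of 54532 mouse genes, and each symbol matched 1 row. All 10 passed the filter on low counts that left 15009 genes for testing, with 532 to 84029 reads per gene and library.

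The RNA came from LSK cells (Lin-Sca-1+c-Kit+), the bone marrow fraction that holds blood stem cells and multipotent progenitors, of C57BL/6 mice. There were 3 libraries from AML1/ETO mice, of genotype Runx1-Runx1t1, and 5 from wild-type (WT) control mice. AML1/ETO is the fusion protein of t(8;21) acute myeloid leukaemia. Mice of both groups received poly(I:C), a synthetic double-stranded RNA that is sensed as viral, 4 times at 5 mg/kg on alternate days, and were killed 4 weeks later. The sources used here do not give the promoter that drives the fusion allele, a recombinase, or the age and sex of the mice. Nothing in the labels says that replicates came from different animals, and p-values then measure only the spread between these libraries, which may be technical.

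Libraries held 14693080 to 17527043 counted reads. Runx1t1, the ETO part of the fusion, stood at 53.9 to 123 CPM (normalised read counts) in the AML1/ETO libraries and at 1.58 to 7.68 CPM in the controls, in the order the labels give. The groups also differed in sex-linked RNA: Xist was at 1972 to 2168 CPM in AML1/ETO and 0 to 6.51 CPM in control libraries, and the Y-linked Ddx3y at 0 against 216 to 289 CPM. Genotype and sex therefore cannot be told apart. Of the 7 marker genes of the gate, Kit and Ly6a (Sca-1) stood at a mean of 431 and 14.99 CPM in controls and 1386 and 466 CPM in AML1/ETO, and Cd34 at 683 and 739 CPM. AML1/ETO library 1 and control library 1 stood apart from the other 6 on the second principal component (14.3% of variance), and results that rest on library 1 are given with and without it.

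In resting cells, NF-kappaB dimers are kept in the cytoplasm by IkB proteins. In the canonical pathway, receptors such as those for TNF, IL-1 and microbial products activate the IKK kinase complex, which marks IkB proteins for destruction and frees dimers such as p50-RelA. In the non-canonical pathway the kinase NIK drives processing of the Nfkb2 product p100 to p52, the partner of RelB. NF-kappaB induces several of its own inhibitors, which closes a negative feedback loop. In blood stem and progenitor cells the pathway is known for shaping survival, inflammatory output and lineage choice.

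Because these feedback loops act through kappaB sites, RefSeq promoters (GRCm38.p6) were searched on both strands for the 10-base kappaB consensus. Each window was the 250 bases before a RefSeq start, and the start named with a sequence is that one. RefSeq starts can differ from the GENCODE gene spans given below. The matches shown for Tnfaip3 and Nfkb2 lie inside those spans. Of the 10 genes, 7 matched an entry of the table (Nfkb2, Rel, Rela, Nfkbia, Nfkbib, Nfkbie and Tnfaip3), and 5 of them held at least 1 match in a window: Nfkb2, Rel, Nfkbia, Nfkbie and Tnfaip3. The share with a match was 4.46% of all 27025 genes and 3.90% of all 32851 windows of this length in that resource. A match describes the letters only and is not evidence of binding. Windows of 3 members are shown whole, and for the inducible Tnfaip3 and for Nfkb2 the bases around each match of the window that holds the most; capitals mark the matched bases, where overlapping matches run together, and each sequence is written 5′ to 3′ on the gene's strand.
Nfkbia (chr12:55492648-55492897, minus strand): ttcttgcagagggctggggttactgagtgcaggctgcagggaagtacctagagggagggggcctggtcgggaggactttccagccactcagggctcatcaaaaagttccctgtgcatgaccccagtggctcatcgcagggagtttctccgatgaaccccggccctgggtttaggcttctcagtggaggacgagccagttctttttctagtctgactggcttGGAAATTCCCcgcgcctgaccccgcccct
Rel (chr11:23770970-23771219, minus strand): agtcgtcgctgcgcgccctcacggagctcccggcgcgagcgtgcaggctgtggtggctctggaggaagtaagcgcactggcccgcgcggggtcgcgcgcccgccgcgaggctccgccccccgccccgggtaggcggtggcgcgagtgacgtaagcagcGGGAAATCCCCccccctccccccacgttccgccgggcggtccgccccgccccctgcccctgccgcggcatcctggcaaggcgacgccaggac
Nfkbie (chr17:45555450-45555699, plus strand): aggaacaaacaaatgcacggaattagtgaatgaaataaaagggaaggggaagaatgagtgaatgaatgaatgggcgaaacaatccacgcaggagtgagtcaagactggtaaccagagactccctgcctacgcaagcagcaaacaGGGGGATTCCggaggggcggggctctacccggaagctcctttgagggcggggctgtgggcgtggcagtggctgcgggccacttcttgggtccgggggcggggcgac
Tnfaip3, upstream match (chr10:19015516-19015545, minus strand): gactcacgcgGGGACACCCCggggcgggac
Tnfaip3, match next to the start (chr10:19015411-19015432, minus strand): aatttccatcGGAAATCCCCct
Nfkb2, upstream match (chr19:46304688-46304717, plus strand): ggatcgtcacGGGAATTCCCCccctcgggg
Nfkb2, match next to the start (chr19:46304716-46304736, plus strand): ggggccgaaaGGGGCTTTCCc

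Inhibitors and subunits differed in what the test found. Of the 5 inhibitors, 3 rose in AML1/ETO (Nfkbia, Nfkbiz and Tnfaip3), none fell and 2 did not pass. Of the 5 subunits, none rose, 1 fell (Nfkb1) and 4 did not pass (edgeR quasi-likelihood test over all 15009 genes, Benjamini-Hochberg adjusted p under 0.05). As background, 11.6% of all tested genes rose and 14.2% fell. The median log2 fold change was 2.56 over the inhibitors and −0.31 over the subunits, against −0.09 over all tested genes. At an unadjusted p under 0.05 no inhibitor fell, and 2 subunits, Rel and Rela, were higher. DESeq2 called both as risen and limma-voom called neither.

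Tnfaip3 (ENSMUSG00000019850, chromosome 10, 19000910 to 19015657 in mm10) encodes A20, the ubiquitin-editing enzyme that shuts off signalling from TNF and Toll-like receptors. It stood at 5492, 3500.4 and 5496 CPM in AML1/ETO libraries 1, 2 and 3 and at 188, 182, 137, 116 and 143 CPM in control libraries 1 to 5. Every AML1/ETO library was far above every control. The means were 4830 ± 1151 CPM (SD, n = 3) and 153 ± 31.0 CPM (SD, n = 5), 31.5-fold apart. The log2 fold change was 4.98 with an SE of 0.21 (adjusted p = 7.07e-08).

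Nfkbiz (ENSMUSG00000035356, chromosome 16, 55811375 to 55838899) encodes IkB-zeta, an inducible nuclear IkB that restrains some NF-kappaB genes and is needed to switch on others, such as Il6. It stood at 1598, 1667 and 1362 CPM in the AML1/ETO libraries and at 181, 206, 138, 119.6 and 135 CPM in the controls. The groups did not overlap, and the 3 AML1/ETO libraries lay close together. The rise was 9.89-fold, or 3.31 on the log2 scale with an SE of 0.19 (adjusted p = 4.42e-07).

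Nfkbia (ENSMUSG00000021025, chromosome 12, 55489410 to 55492647) encodes IkB-alpha, the prototype inhibitor that is degraded and resynthesised within one round of signalling. It stood at 1143, 1543 and 1383 CPM in AML1/ETO and at 327, 244, 226, 171 and 181 CPM in the controls. Again the groups did not overlap. The rise was 5.90-fold, or 2.56 on the log2 scale with an SE of 0.21 (adjusted p = 6.67e-06). Of all tested genes, 14.1% were higher in every AML1/ETO library than in any control, as these 3 inhibitors were, and 17.5% were lower in every one, as none of the 10 genes was.

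The other cytoplasmic IkB genes behaved otherwise. Nfkbib (ENSMUSG00000030595, chromosome 7, 28758251 to 28767512) encodes IkB-beta, which sustains slower responses. It stood at 90.5, 44.2 and 34.8 CPM in AML1/ETO and at 80.7, 61.2, 47.8, 44.4 and 44.3 CPM in the controls. Library 1 was above every control, library 3 was below every control and library 2 lay just under the lowest. The log2 fold change was 0.02 (SE 0.32, adjusted p = 0.977). Its exons overlap those of Sirt2 and Ccer2 on the other strand, and no source used here states the strand setting of the counting, so the reads of these genes may be mixed.

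Nfkbie (ENSMUSG00000023947, chromosome 17, 45555703 to 45563169) encodes IkB-epsilon, an inhibitor that binds mainly RelA and c-Rel dimers. It stood at 368, 86.8 and 97.9 CPM in AML1/ETO and at 218, 190.9, 154, 151 and 129 CPM in the controls. Library 1 was above every control and libraries 2 and 3 were below every control. Over all libraries the log2 fold change was 0.13 (SE 0.40, adjusted p = 0.870). Without library 1 it was −0.87 (SE 0.21, adjusted p = 0.0108).

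**Figure D1:**
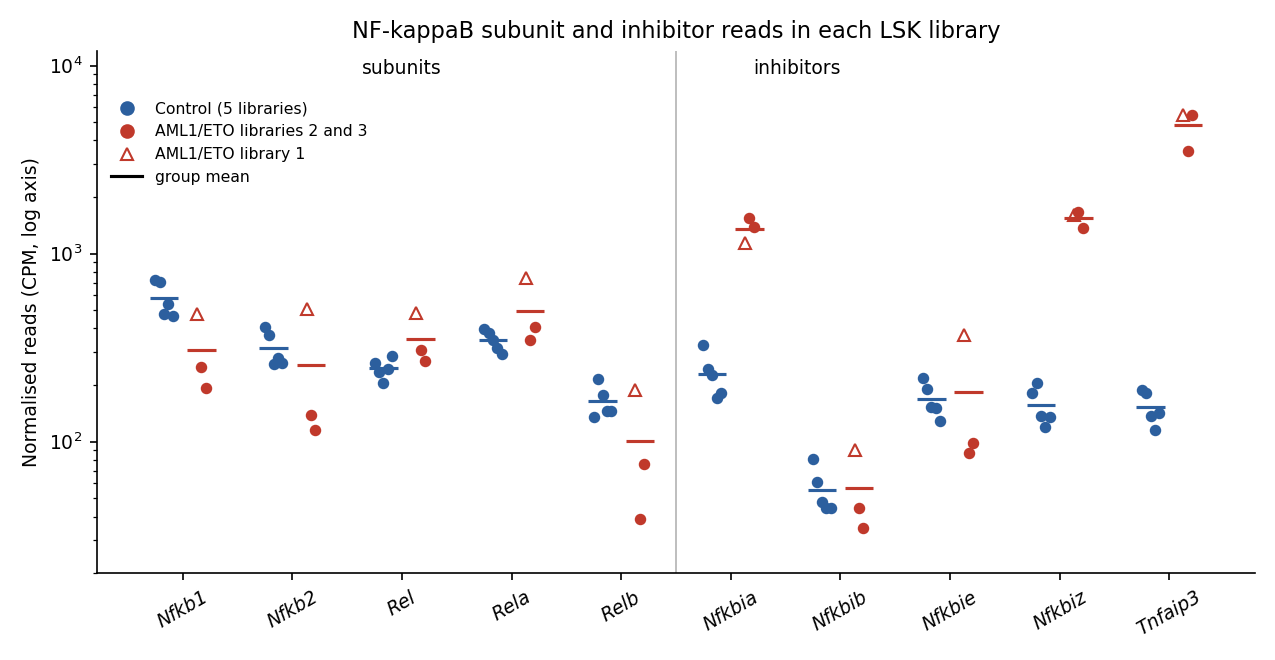
Normalised reads (CPM, log axis) of the 5 subunit and 5 inhibitor genes in each of the 8 libraries. Points are libraries, short lines are group means, and the open triangle is AML1/ETO library 1. Tnfaip3, Nfkbiz and Nfkbia separate the groups, while for Nfkb2, Nfkbib and Nfkbie library 1 lies above and libraries 2 and 3 below all controls.

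Among the subunits, Nfkb1 (ENSMUSG00000028163, chromosome 3, 135584655 to 135691547) encodes p105, the precursor of the DNA-binding subunit p50, which also acts as an IkB through its own C-terminal repeats. It stood at 475, 249.5 and 193 CPM in AML1/ETO and at 724, 711, 477, 538 and 468 CPM in the controls. Libraries 2 and 3 were below every control, and library 1 lay just inside the control range. It fell by 0.93 on the log2 scale (SE 0.28, adjusted p = 0.0293), a mean 1.91-fold lower. It no longer passed when AML1/ETO library 2 or 3 was left out (adjusted p = 0.0892 and 0.0988), or control library 1, 2 or 4 (0.0760, 0.0824 and 0.0589). Without AML1/ETO library 1 it held, at −1.41. Over the alternatives the adjusted p ran from 0.000674 to 0.0988.

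Nfkb2 and Relb, which encode the dimer of the non-canonical pathway, varied widely within the AML1/ETO group. Nfkb2 (ENSMUSG00000025225, chromosome 19, 46304320 to 46312385) stood at 509, 139 and 116 CPM in AML1/ETO and at 406, 368, 259.6, 279.5 and 264 CPM in the controls. As for Nfkbie and Nfkbib, library 1 was above and libraries 2 and 3 were below every control. The log2 fold change was −0.31 (SE 0.41, adjusted p = 0.653), and −1.31 (SE 0.21, adjusted p = 0.000908) without library 1. Exons of Psd lie over those of Nfkb2 on the other strand, with the same doubt about strand.

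Relb (ENSMUSG00000002983, chromosome 7, 19606217 to 19629438) stood at 189, 38.7 and 76.1 CPM in AML1/ETO and at 135, 216, 176, 146 and 146 CPM in the controls. Library 1 fell within the control range and the other two were below it. The log2 fold change was −0.69 (SE 0.40, adjusted p = 0.230), and −1.52 (SE 0.28, adjusted p = 0.00201) without library 1.

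Rela (ENSMUSG00000024927, chromosome 19, 5637483 to 5648130) encodes p65, the main transactivating subunit of the canonical pathway. It stood at 739, 346 and 408 CPM in AML1/ETO and at 396, 379, 346, 315 and 291 CPM in the controls. Libraries 1 and 3 were above every control and library 2 was inside their range. It did not pass (log2 fold change 0.53, SE 0.22, adjusted p = 0.107), and did when AML1/ETO library 2 was left out (0.73, adjusted p = 0.0312). Without library 1 the log2 fold change was 0.12 (SE 0.16, adjusted p = 0.623). Over the alternatives the adjusted p ran from 0.0312 to 0.623.

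Rel (ENSMUSG00000020275, chromosome 11, 23736847 to 23770970) encodes c-Rel, a subunit prominent in lymphoid cells. It stood at 484, 307 and 269 CPM in AML1/ETO and at 262, 235, 206, 244 and 285 CPM in the controls. Libraries 1 and 2 were above every control. It did not pass (log2 fold change 0.52, SE 0.20, adjusted p = 0.0707), and did when AML1/ETO library 3 was left out (0.68, adjusted p = 0.0338). Without library 1 it was 0.22 (SE 0.15, adjusted p = 0.322). Over the alternatives the adjusted p ran from 0.0216 to 0.322.

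**Figure D2:**
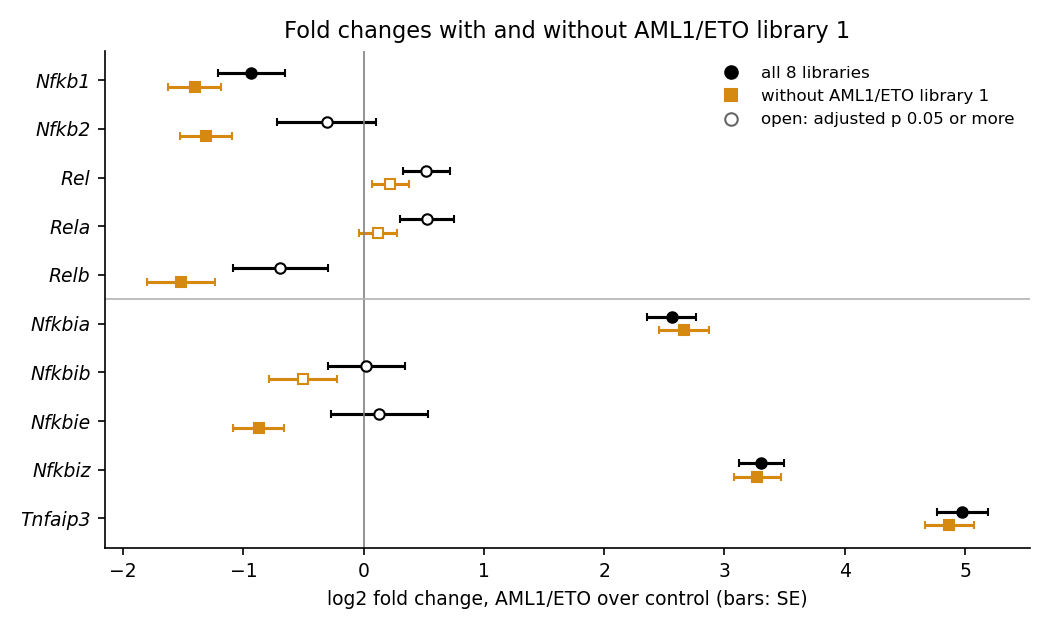
Log2 fold change of AML1/ETO over control with its SE for each of the 10 genes, from all 8 libraries (black circles) and without AML1/ETO library 1 (orange squares); filled symbols have an adjusted p under 0.05. Tnfaip3, Nfkbiz and Nfkbia keep their place near 4.98, 3.31 and 2.56, whereas Nfkb2, Relb and Nfkbie move to −1.31, −1.52 and −0.87 without library 1.

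AML1/ETO library 1 thus split the 10 genes. Relative to the mean of libraries 2 and 3 it was 4.00-fold higher for Nfkb2, 3.98-fold for Nfkbie, 3.30-fold for Relb, 2.29-fold for Nfkbib, 2.15-fold for Nfkb1, 1.96-fold for Rela and 1.68-fold for Rel. The 3 risen inhibitors differed less, at 1.22-fold for Tnfaip3, 1.05-fold for Nfkbiz and 0.781-fold for Nfkbia. Over the 7313 genes that averaged at least 20 CPM in AML1/ETO, the median ratio was 0.997, and 16.5% of genes were at 1.5 or more, as were 7 of the 10. Among 65 genes at this level in the lists of other pathway genes described below, 17 were at 1.5 or more, with a median of 1.22. Without library 1, 4 of the 10 genes fell (Nfkb1, Nfkb2, Relb and Nfkbie; 14.1% of all tested genes did) and Nfkbia, Nfkbiz and Tnfaip3 rose (10.2% did). Without either library 1, 4 also fell, against 14.7% of tested genes.

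The balance of inhibitors and subunits was compared in each library as the mean log2(CPM + 1) of the 5 inhibitors minus that of the 5 subunits. It was 0.87, 1.58 and 1.51 in AML1/ETO libraries 1, 2 and 3 and −0.87, −1.10, −1.12, −1.34 and −1.24 in control libraries 1 to 5. Every AML1/ETO library was above every control, with library 1 closest to the controls. The sign of the value itself depends on gene length, which cancels between groups. The means were 1.32 ± 0.39 (SD, n = 3) and −1.13 ± 0.17 (SD, n = 5), which differ by 2.46 on the log2 scale, with an SD within groups of 0.27. The 10 genes were proposed with results known, so no p is given. With Nfkbia, Nfkbib and Nfkbie alone as inhibitors, that is without Nfkbiz and Tnfaip3, the difference between groups was 1.11. Of these 3 only Nfkbia rose, as the log2 fold changes were 2.56, 0.02 and 0.13.

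**Figure D3:**
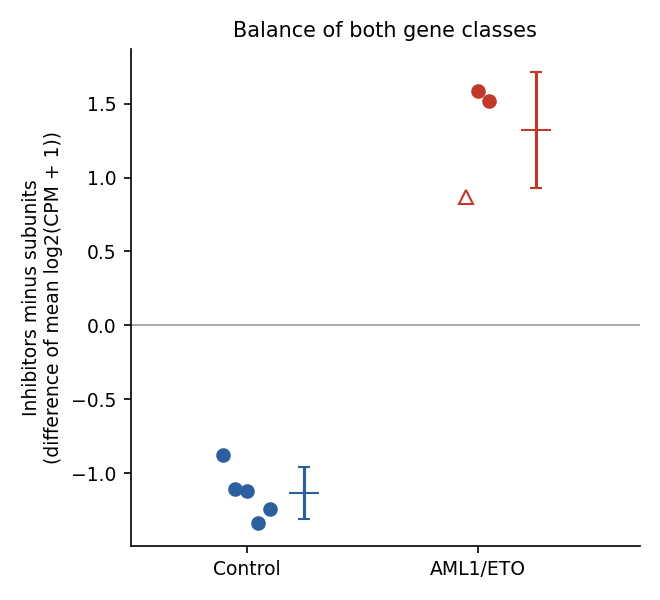
Mean log2(CPM + 1) of the 5 inhibitors minus that of the 5 subunits in each library. Points are libraries, the open triangle is AML1/ETO library 1, and bars beside them are the group mean with its SD. Controls lie between −1.34 and −0.87 and AML1/ETO libraries between 0.87 and 1.58.

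Levels of different genes were compared as CPM per kb of exon. The length was the union of all annotated exons, 12061 bases for Nfkb1, 7226 for Tnfaip3 and 1610 for Nfkbia. It can exceed that of the transcripts expressed here, which were not measured, so the order of genes depends on it. In controls Nfkbia was highest, at 143 ± 38.6 CPM per kb (SD, n = 5), followed by Rela at 112 ± 14.1, Nfkb2 at 68.8 ± 14.7, Nfkbie at 55.3 ± 11.7, Nfkb1 at 48.4 ± 10.4, Relb at 42.2 ± 8.44, Rel at 33.0 ± 4.00, Nfkbiz at 31.1 ± 7.23, Nfkbib at 25.7 ± 7.20 and Tnfaip3 at 21.2 ± 4.29. Neighbours in this order overlapped in their ranges over libraries, except that Rela lay above Nfkb2 in every control. In AML1/ETO the 3 risen inhibitors led, with Nfkbia at 842 ± 125 CPM per kb (SD, n = 3), Tnfaip3 at 668 ± 159 and Nfkbiz at 307 ± 31.8. Rela followed at 162 ± 68.8, Nfkbie at 60.5 ± 52.2, Nfkb2 at 55.5 ± 48.1, Rel at 47.3 ± 15.4, Relb at 26.1 ± 20.2, Nfkbib at 26.0 ± 13.7 and Nfkb1 at 25.3 ± 12.4. Here Tnfaip3 and Nfkbiz did not overlap with each other, nor Nfkbiz with Rela, while Nfkbia overlapped with Tnfaip3 and neighbours from Rela down overlapped as well.

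Per length, Nfkbia stood at 1.04 to 1.58 times the level of Rela, whose protein it retains, in the controls, and at 2.95, 8.51 and 6.46 times in AML1/ETO libraries 1, 2 and 3. Tnfaip3 was at 0.359 to 0.508 times the level of Nfkb1 in the controls and at 19.3, 23.4 and 47.6 times in AML1/ETO. Both ratios separated the groups. For Tnfaip3 over Nfkb1, the largest rise and the only called fall of the 10 genes, this followed from the choice of pair. The rise of Nfkbia given above likewise enters its ratio to Rela. The size of a ratio depends on exon length, which cancels between groups. For Nfkbib over Rela the order was the other way, at 0.196 to 0.289 in the controls and 0.173, 0.181 and 0.121 in AML1/ETO. For Nfkbie over Rel the groups overlapped, at 1.11 to 2.04 in the controls and 1.86, 0.693 and 0.891 in AML1/ETO.

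**Figure D4:**
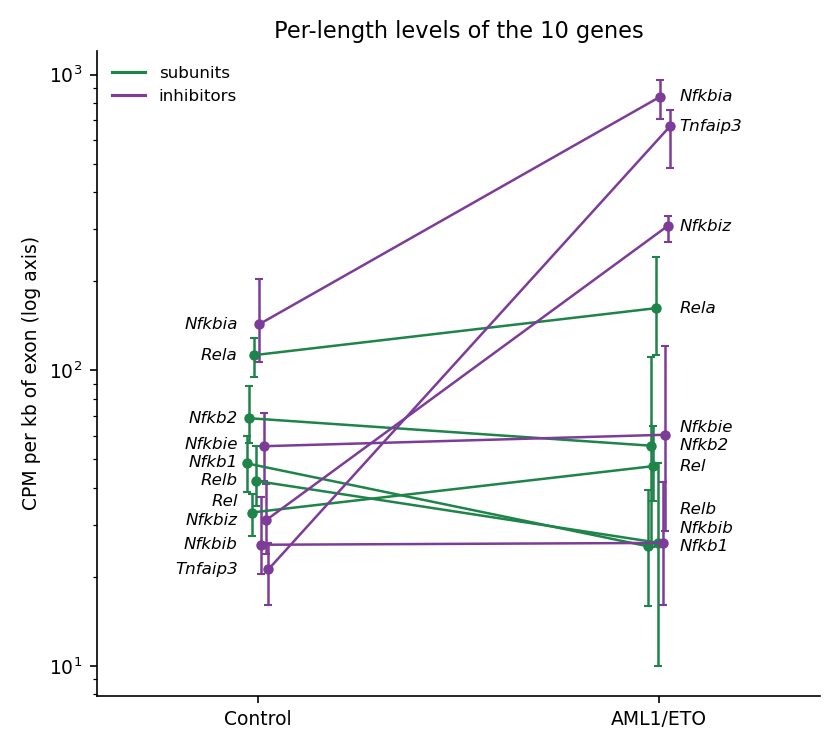
Level of each gene as CPM per kb of exon (log axis) in control and AML1/ETO libraries; points are group means, bars run from the lowest to the highest library, green marks subunits and purple inhibitors. Tnfaip3 goes from the lowest mean of the 10 genes, 21.2, to 668, below Nfkbia alone at 842. Lengths are the union of all annotated exons, on which the order of genes depends.

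The rest of the pathway was described by 5 lists with 97 genes, 88 of them tested. Of these, 22 rose and 18 fell, and the median log2 fold change was 0.06. Of all tested genes, 11.6% rose and 14.2% fell, and these shares are the background for the counts of each list below. Of the 7 genes in the list of kinases and kinase subunits, none passed with edgeR, DESeq2 or limma-voom. At an unadjusted p under 0.05 the counts were 0, 0 and 1. Chuk and Ikbkb, the catalytic subunits IKK-alpha and IKK-beta, stood at 75.8 ± 7.43 against 85.0 ± 17.2 CPM and 233 ± 57.2 against 192 ± 26.5 CPM (AML1/ETO, n = 3, against control, n = 5; SD). Ikbkg, the regulatory subunit NEMO, stood at 57.5 against 49.4 CPM, and Map3k14, which encodes NIK, at 62.1 against 82.1 CPM. Their log2 fold changes were −0.17, 0.28, 0.22 and −0.40, with adjusted p from 0.282 to 0.619.

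Receptors split: of 11 tested, 2 rose and 5 fell, with a median log2 fold change of −1.92. Il1r1, the IL-1 receptor, fell to 2.33 ± 1.76 from 92.4 ± 4.95 CPM (log2 fold change −5.29, adjusted p = 2.85e-05), and Tlr2, a receptor for bacterial lipoproteins, to 2.25 ± 1.71 from 36.1 ± 5.71 CPM (−4.00, or −4.74 without AML1/ETO library 3). Tnfrsf1b, the second TNF receptor, fell to 129 from 309.6 CPM (log2 fold change −1.27). In contrast Tlr7, a sensor of single-stranded RNA, rose to 54.7 ± 12.1 from 7.55 ± 2.57 CPM (2.85), and Il1rap, the chain shared by the IL-1 and IL-33 receptors, to 49.1 from 13.6 CPM (1.85).

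Of 26 adaptor and ubiquitin genes 5 rose and 4 fell, beside 11.6% and 14.2% of all tested genes. Their median log2 fold change was 0.01. Birc2, the ubiquitin ligase cIAP1, rose to 273 ± 56.0 from 90.0 ± 12.9 CPM (log2 fold change 1.60, adjusted p = 6.19e-05), and Irak4, a kinase of the MyD88 complex, to 39.9 from 17.5 CPM (1.19). Malt1, the paracaspase that cleaves A20, stood at 870.2, 116 and 188 CPM in AML1/ETO libraries 1, 2 and 3 and at 65.3 to 93.8 CPM in controls. Its log2 fold change of 2.26 (adjusted p = 0.00543) was 0.89 (adjusted p = 0.0107) without library 1. Traf3, which keeps NIK low, fell to 59.9 from 149 CPM (−1.31), the ubiquitin ligase Traf6 to 61.0 from 131 CPM (−1.10) and Card9, an adaptor of fungal sensing, to 4.97 from 35.6 CPM (−2.83).

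Further brakes and atypical IkB genes also went both ways, with 5 of 20 risen and 7 fallen and a median log2 fold change of −0.12. Without AML1/ETO library 1, 3 rose and 7 fell. Nfkbid, the nuclear IkB-NS, rose to 613 ± 164 from 106 ± 32.6 CPM (log2 fold change 2.53, adjusted p = 2.81e-05), and Bcl3, another nuclear IkB, fell to 49.0 ± 7.93 from 93.2 ± 14.7 CPM (−0.93, adjusted p = 0.00478). Tnip1 and Tnip3, which encode the A20-binding proteins ABIN1 and ABIN3, fell to 91.3 from 242 CPM (−1.41) and to 1.08 from 29.9 CPM (−4.77, or −5.86 without AML1/ETO library 2), and Tax1bp1, an adaptor of A20, to 281 from 564 CPM (−1.01). Tnip2, which encodes ABIN2, rose to 104 from 59.0 CPM (0.81). Cyld, a deubiquitinase that restrains the pathway, fell to 67.6 from 119 CPM (−0.82, adjusted p = 0.0169), which no longer passed without control library 2 (adjusted p = 0.0531; 0.00538 to 0.0531 over the alternatives). Sigirr, an inhibitory member of the IL-1 receptor family, rose to 116 from 32.4 CPM (1.84).

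Of 24 tested genes known as NF-kappaB targets 10 rose and 2 fell, with a median log2 fold change of 0.78. The count of fallen targets rested on single libraries: it was 6 without AML1/ETO library 1, 5 without both first libraries, and 1 without AML1/ETO library 2 or 3 or control library 1, 2, 3 or 4. Cxcl2, a neutrophil chemokine, rose to 382 ± 8.27 from 17.5 ± 9.63 CPM (log2 fold change 4.45, adjusted p = 9.92e-06), Gadd45b, a stress sensor, to 379 ± 26.5 from 87.0 ± 22.0 CPM (2.12) and Tnf to 135 ± 41.3 from 19.6 ± 7.61 CPM (2.79). The chemokine Ccl5 had no read in AML1/ETO against 6.16 ± 4.79 CPM, at least 30.3-fold lower with a floor of 3 reads per library. Its control values ran from 1.15 to 13.7 CPM, and limma-voom did not call it (adjusted p = 0.0561; 1.71e-07 to 0.0561 over the alternatives). Cd83, an activation marker, fell to 12.4 ± 11.7 from 41.7 ± 18.1 CPM (−1.75, adjusted p = 0.0396). That call was lost when AML1/ETO library 2 or 3 or control library 1, 2, 3 or 4 was left out (adjusted p from 0.0591 to 0.122), and without AML1/ETO library 1 the log2 fold change was −2.88.

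**Figure D5:**
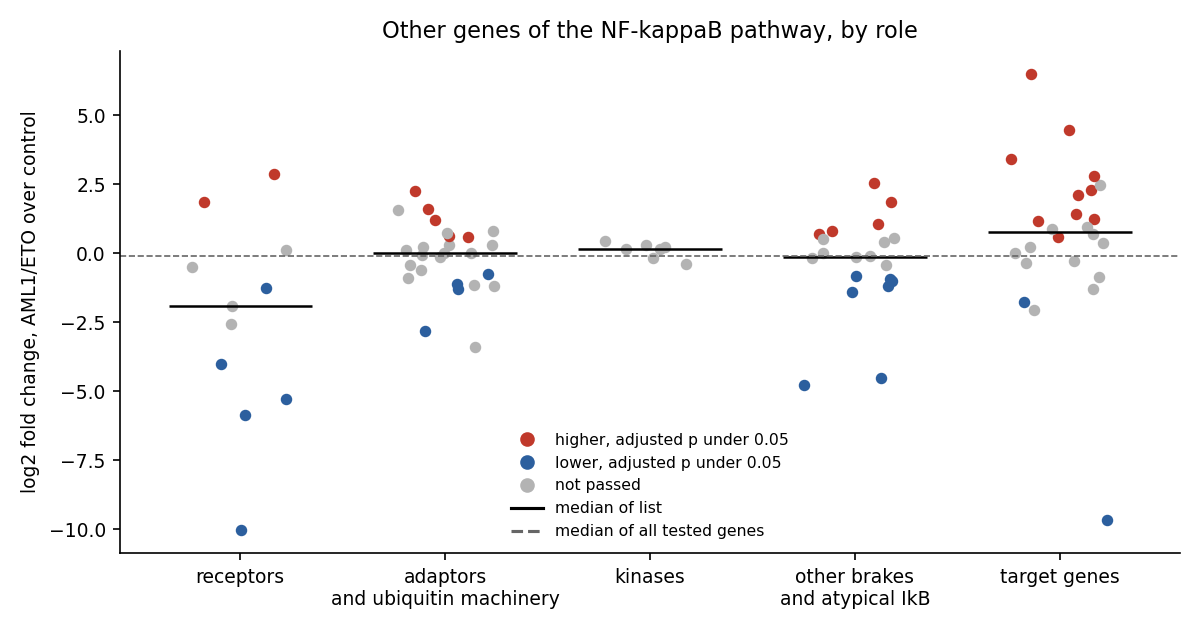
Log2 fold change of AML1/ETO over control for the 88 tested genes of the 5 pathway lists. Each point is a gene, coloured where its adjusted p is under 0.05; black lines are list medians (−1.92 for receptors, 0.78 for target genes) and the dashed line is the median of all tested genes, −0.09. Genes without a read in AML1/ETO, such as Ccl5, are drawn at the fitted value, which is not a bound.

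Levels of other cell type and stress markers are given beside these results. Immediate early genes, which handling or sorting of cells can also induce, rose in 15 of 19 cases and fell in none, and their summed level was 35576 to 49889 CPM in AML1/ETO and 2646 to 4833 CPM in controls. Of 10 mast cell markers 7 were tested and all of these rose; the summed level was 2929 to 7544 CPM against 27.2 to 74.3 CPM, and 4 of the 10 (Cma1, Tpsb2, Tpsab1 and Mcpt4) had no read in any control. B cell markers were lower, with 4 of 6 tested fallen and 5.30 to 10.8 against 76.4 to 222 CPM summed. In AML1/ETO 6 of 8 B cell markers were at 0, of which Ms4a1 was at 0 in all libraries. Monocyte and macrophage markers were also lower (4 of 9 fell, 44.3 to 64.4 against 150.4 to 268 CPM, with Cx3cr1 at 0 in AML1/ETO). In the B cell sums of controls, Ighm alone stood at 69.9 to 169 CPM. Neutrophil markers, with 3 of 7 fallen, stood at 0.654 to 66.7 against 124 to 287 CPM. Cxcr2 was at 0 in AML1/ETO and Ly6g in all libraries. T and NK cell markers stood at 7.59 to 10.3 against 60.9 to 116 CPM, with 1 of 3 tested fallen. The fallen gene, Nkg7, made up nearly all of the control sums, at 60.9 to 114 CPM. Cd3e, Cd3d, Cd3g, Cd8a and Gzma were at 0 in all libraries. Megakaryocyte markers (1 of 6 risen, 3 fallen) stood at 201 to 655 against 292 to 436 CPM, with overlapping groups. The risen Itga2b alone stood at 191 to 638 against 165 to 286 CPM, while Gp9, Vwf and Cd9 fell. Gp9 and Vwf were at 0 in AML1/ETO and Ppbp was at 0 in all libraries. Dendritic cell markers (1 of 4 risen, 2 fallen) stood at 482 to 719 against 364 to 545 CPM, also overlapping. The risen Flt3, which is also among the marker genes of the gate, alone stood at 405 to 577 against 210 to 371 CPM. Itgax and Cd74 fell. Itgax, Siglech and Xcr1 were at 0 in AML1/ETO and Cd209a was at 0 in all libraries. The part of such cells or of handling in the results was not tested. In RNA from a sorted population, fewer cells of a type and less RNA per cell cannot be told apart.

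The genes whose log2(CPM + 1) followed Tnfaip3 most closely over the 8 libraries, among 7576 genes averaging at least 20 CPM, were Itga2, Gramd4 and Sik1 (Pearson r = 0.996, 0.996 and 0.995). For Nfkbia they were Trim30a, Egr1 and Dusp1 (r = 0.996, 0.996 and 0.995). These values are descriptive: the difference between the groups sets most of each r, and 313 and 212 genes had an r above 0.95 with Tnfaip3 and Nfkbia.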

How the data were processed

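RNA-seq reads of 8 LSK libraries were processed by the authors to raw counts per Ensembl gene, 1 deposited column per library without pooling. Alignment used HISAT2 2.0.5 and counting featureCounts 1.5.0-p3 on mm10, per the submitters' processing notes. No source used here states the annotation release, the strand setting or how multi-mapping reads were treated. Groups came from the titles. Genes were filtered with filterByExpr, scaled with TMM and tested in edgeR 4.0.16 (R 4.3.3; glmQLFit, glmQLFTest, two-sided, Benjamini-Hochberg over 15009 genes, threshold 0.05) over all 8 libraries without covariates. Standard errors were derived from the F statistic, CPM used TMM-scaled library sizes, and exon lengths and coordinates came from GENCODE M21 on GRCm38, the assembly of mm10. The procedure was tested on simulated counts. Alternatives were DESeq2 1.42.0, limma-voom (limma 3.58.1), 3 other scalings, 2 other filters, each library left out, both first libraries left out, and the replicate number as a block. Members and gene lists were chosen with earlier results of these data known. Named were the 10 members, Nfkbid, Bcl3, Tnip1, Cyld, Chuk, Ikbkb, Ikbkg and Map3k14, and up to 3 rises and 3 falls per list by smallest p. Protein sequences were not used here. Counting error is small beside the spread between libraries at these depths. The erythroid marker list is not reported here.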

Additional observations from a re-analysis of the deposited data

Results flagged for a closer look

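In 39 sets of 5 control values, a control library lay far from the other four for 5 genes of the pathway lists and for none of the 10 subunits and inhibitors; chance alone flags about 1 in 20. Il1r1 was lowest at 83.7 CPM in 1 control, with the next at 93.8 CPM. Ikbkb was highest at 239 CPM, with the next at 188 CPM. Tnip2 was highest at 81.1 CPM, with the next at 56.3 CPM. Tnip3 was highest at 46.3 CPM, with the next at 29.5 CPM. Gadd45b was highest at 126 CPM, with the next at 79.8 CPM.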

How the results depend on the processing

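Nfkbia, Nfkbiz and Tnfaip3 kept direction and call under all 17 alternatives, with log2 fold changes of 2.36 to 2.82, 3.15 to 3.47 and 4.82 to 5.16. DESeq2 called 5 members as risen, adding Rel and Rela. Of fallen members limma-voom called 3, and leaving out single libraries gave 0 to 4 (4 without AML1/ETO library 1, 0 without AML1/ETO library 2 or 3 or control library 1, 2 or 4). Leaving out both first libraries gave 4. Nfkbie ranged from −0.87 without AML1/ETO library 1, a reversal, to 0.46 without library 2, and was reversed at −0.76 without both first libraries; the cause was not tested. Nfkbib did not pass under any, at −0.50 to 0.27. The difference between inhibitors and subunits of 2.46 was 2.33 to 2.68 when a library was left out, 2.75 without both first libraries, 1.11 with the classical IkB genes alone, 2.13 with Rela, Relb and Rel alone as subunits and 3.27 with medians. Scaling by library totals shifted the median of all genes by −0.15 and the share of risen among called genes from 44.9% to 34.2%; no call of a member changed with it. Over all tested genes, deviations of same-numbered libraries from their group means had correlations of 0.04, −0.04 and 0.03. Not every library correlated best with its own number. AML1/ETO library 1 and control library 1 still lay together on the second principal component, at 106 and 102. Both were the highest of their group for Nfkb1, Nfkb2, Rela, Nfkbib and Nfkbie, but not both for any other member. A shared cause was not tested. With the replicate number as a block, calls fell from 3862 to 2049 over all genes and from 22 to 12 risen pathway genes, with the calls of Malt1, Irak4 and Tnip2 among those lost; no call of a member changed. Risen brakes fell from 5 to 2 and risen adaptor genes from 5 to 1 with the block. Risen adaptor genes numbered 3 with library totals, fallen adaptor genes 7 instead of 4 with limma-voom, and fallen targets 1 with DESeq2 size factors. Read depth limits only genes at a few reads, such as Ccl5.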
